A study of Homo sapiens with 8 samples.

Results

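A small fraction of RNAPII peaks in MDA-MB-453 cells lay outside genes and far from any annotated transcription start. They are described here as intergenic summits. A summit is the point of highest signal that the peak caller reported within an enriched region, and a region can hold several. A summit was counted as intergenic when it lay more than 10 kb from every transcript start of GENCODE release 44 (mapped to GRCh37) and outside all protein-coding and lncRNA genes extended by 3 kb past their ends. Of 459977 summits in 4 libraries, 11217 (2.44%) met this rule, which used position only and no measured value. The rule leaves out pseudogenes and other small classes when it asks whether a summit is inside a gene, and 2.74% and 2.91% of intergenic summits with vehicle and 3.97% and 4.44% with CDDD11-8 lay inside such a gene.

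MDA-MB-453 is a human breast cancer cell line, and the study treated it for 4 h with vehicle or with 600 nM CDDD11-8 (D11-8 in the labels), an inhibitor of CDK9. Chromatin was precipitated with the RNAPII antibody CTD4H8, with 2 replicates per treatment from separate passages of this one line and no other genetic change named. Peaks had been called in each library against its paired chromatin input, and the 4 inputs were not analysed here as samples. The lists hold no read counts, so the depth behind each value is unknown. Values given as a series follow the order vehicle replicates 1 and 2, then CDDD11-8 replicates 1 and 2.

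RNAPII outside genes is known from several settings. It transcribes short RNAs at active enhancers, it initiates at promoters that are not in the annotation, and it continues past the polyadenylation site of a gene until it is released from DNA. CDK9 is the kinase of P-TEFb, which releases promoter-proximally paused polymerase into elongation and also acts on factors used in 3′ end processing and termination.

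Sequences of 200 bp around 5 intergenic summits are shown first, taken from the groups of loci that the results turn on. They were chosen among the highest-ranked loci found in all 4 libraries, in both CDDD11-8 libraries only and in both vehicle libraries only. They are not typical of these groups. In 300 bp, the median number of CpG dinucleotides was 5 for loci in all 4 libraries and 3 for those in CDDD11-8 libraries only. Of loci in vehicle libraries only, 67.3% lay 3 to 10 kb past a gene end. All are from the plus strand of the GENCODE GRCh37 genome, 5′ to 3′. Capitals mark matches on either strand to the following letters, some of which overlap: for AP-1 TGANTCA, for FOX factors TGTTTAC, for GATA factors AGATAAG, for AP-2 GCCNNNGGC, for GRHL factors AACNNGTT, for ETS factors CCGGAAGT, for the CTCF core GGNGGCAG, for SP factors GGGCGG and for the TATA box TATAAA. A match describes letters only and does not show that a factor was bound.
all 4 libraries, past ZNF778, chr16:89307632-89307831: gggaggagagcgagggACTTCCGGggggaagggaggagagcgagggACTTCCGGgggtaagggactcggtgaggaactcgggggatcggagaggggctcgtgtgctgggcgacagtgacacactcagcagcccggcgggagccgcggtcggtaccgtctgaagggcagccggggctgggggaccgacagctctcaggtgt
all 4 libraries, past PCDH1, chr5:141229202-141229401: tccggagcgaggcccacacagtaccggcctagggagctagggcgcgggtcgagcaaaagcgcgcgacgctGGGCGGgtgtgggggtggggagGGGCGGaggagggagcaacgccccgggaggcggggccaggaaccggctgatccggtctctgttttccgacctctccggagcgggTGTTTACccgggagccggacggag
CDDD11-8 libraries only, past ETF1, chr5:137827655-137827854: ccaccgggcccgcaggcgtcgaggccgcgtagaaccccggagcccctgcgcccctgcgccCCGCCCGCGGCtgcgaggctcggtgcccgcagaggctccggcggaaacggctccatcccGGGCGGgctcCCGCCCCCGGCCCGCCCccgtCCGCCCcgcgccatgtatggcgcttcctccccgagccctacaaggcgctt
CDDD11-8 libraries only, past HNRNPD, chr4:83256173-83256372: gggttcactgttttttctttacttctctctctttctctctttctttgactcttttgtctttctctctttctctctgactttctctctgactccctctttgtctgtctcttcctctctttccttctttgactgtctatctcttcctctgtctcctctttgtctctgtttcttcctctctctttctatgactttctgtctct
vehicle libraries only, far past GATA3, chr10:9104516-9104715: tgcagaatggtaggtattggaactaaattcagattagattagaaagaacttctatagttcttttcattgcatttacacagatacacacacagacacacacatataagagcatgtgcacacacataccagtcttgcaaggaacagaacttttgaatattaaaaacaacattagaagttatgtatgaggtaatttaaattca
The first 3 windows had a GC content of 69.5%, 72% and 79.5% and held 17, 23 and 30 CpG dinucleotides. The ZNF778 window held the ETS letters at 2 positions, the PCDH1 window held SP at 2 positions and FOX at 1, and the ETF1 window held SP and AP-2 matches. The HNRNPD window was a pyrimidine-rich stretch with 40.5% GC, no CpG and none of the letters searched. The window far past GATA3 held no match at 32% GC.

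The lists as a whole held 178966 and 135500 summits with vehicle and 80894 and 64617 with CDDD11-8. Promoter summits were found in all 4 libraries for 7 genes of the luminal lineage (FOXA1, GATA3, SPDEF, XBP1, KRT8, KRT18 and ERBB2). None was found in any library for ESR1, PGR, KRT5, KRT14, TP63 or the leukocyte gene PTPRC, and the fibroblast gene COL1A1 had none in the first vehicle library and 1 in each of the others. A caller finds more weak summits in a deeper or less scaled library, and the pileups of the CDDD11-8 libraries had been scaled down while those of the vehicle libraries were whole numbers. Numbers of summits are therefore given with lists of equal length as well. With 2 libraries per treatment the exact two-sided permutation test has 6 arrangements and cannot go below p = 0.33.

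Intergenic summits fell in number with CDDD11-8 by less than summits in gene bodies did. They numbered 3834, 2925, 2520 and 1938, which gave a vehicle mean of 3379.5 ± 643 (SD, n = 2) and a CDDD11-8 mean of 2229 ± 412 (SD, n = 2). The groups did not overlap (exact permutation p = 0.33). When every list was cut to the 64617 summits of the shortest, keeping those with the strongest q-values, the numbers were 1298, 1258, 1700 and 1938, so the direction turned. It also turned, with overlapping groups, when gene spans were extended by 10 kb (1585, 1292, 1689 and 1348). Lists of equal length end at unlike q-values. The smallest −log10 q left was 9.41 and 7.10 with vehicle and 4.10 in the first CDDD11-8 list, and the second CDDD11-8 list was not cut. With a common threshold, −log10 q of at least 5, the numbers were 2537, 1867, 1458 and 1214, which kept the direction of the full lists.

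The intergenic share of a list was 2.14% and 2.16% with vehicle and 3.12% and 3.0% with CDDD11-8. The shares of the 2 treatments did not overlap, on the full lists (exact permutation p = 0.33) or on lists of equal length. Setting libraries of the same replicate number beside each other, CDDD11-8 lists held 0.657 and 0.663 times as many intergenic summits as vehicle lists. The corresponding ratios were 0.797 and 0.755 within 300 bp of a transcript start (promoters) and 0.114 and 0.112 inside genes but over 10 kb from every start (distal gene bodies). The log2 ratio of intergenic to distal gene body summits was −2.58 and −2.27 with vehicle and −0.05 and 0.30 with CDDD11-8, a difference of 2.55 (exact permutation p = 0.33). It was 1.81 on lists of equal length.

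**Figure D1:**
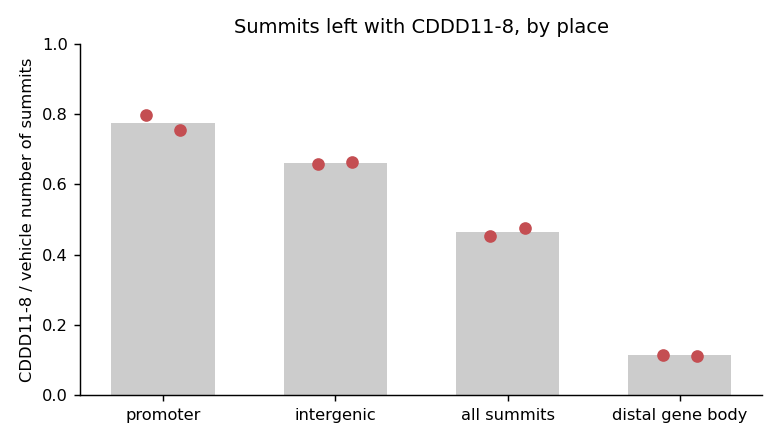
Number of RNAPII summits with CDDD11-8 divided by the number with vehicle (vertical axis, no unit), by place in the genome. Points are the 2 ratios between libraries of the same replicate number and grey bars their mean. Intergenic summits sit at 0.657 and 0.663, below promoters at 0.797 and 0.755 and far above distal gene bodies at 0.114 and 0.112.

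The eligible sequence, which is what remains of the genome after the rule, came to 771 Mb or 27% of sequence outside assembly gaps. Intergenic summits were found there at 4.98, 3.80, 3.27 and 2.52 per Mb. Distal gene bodies held 26.6, 16.3, 3.03 and 1.82 per Mb. With vehicle the gene bodies were thus several times denser than the intergenic space, and in both CDDD11-8 libraries the intergenic space was the denser.

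Fold enrichment, the signal at the summit over the local background, had similar medians in all 4 libraries (3.85, 3.72, 3.82 and 3.71). Its highest intergenic values were 23.7, 19.8, 44.9 and 27.6. To compare libraries, each summit was given its percentile of fold enrichment within its own list. The median intergenic percentile was 54.6 and 49.3 with vehicle and 34.8 and 36.1 with CDDD11-8, without overlap (exact permutation p = 0.33). Promoter summits lay higher with CDDD11-8 (65.8, 77.5, 83.7 and 81.8), and distal gene body summits also lay lower with CDDD11-8 (43.6, 43.3, 31.5 and 34.3). The number of intergenic summits in the top 10% of their list was 386, 169, 21 and 20, or 10.1%, 5.78%, 0.833% and 1.03% of them.

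**Figure D2:**
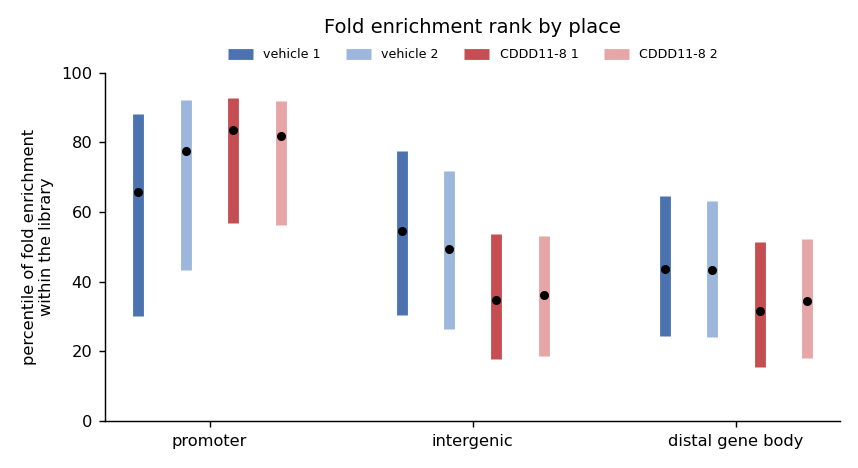
Percentile of fold enrichment within each library (vertical axis, 0 to 100) for promoter, intergenic and distal gene body summits. Black points are medians and coloured bars run from the 25th to the 75th percentile of the summits of one library. Intergenic medians lie at 54.6 and 49.3 with vehicle and at 34.8 and 36.1 with CDDD11-8.

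Median folds just outside and just inside the limits of the rule lay close together. Summits 9 to 10 kb from a start, just outside the rule, had median folds of 3.82, 3.61, 3.75 and 3.44. Those 10 to 11 kb from a start, just inside it, had 3.96, 3.63, 3.82 and 3.66. At 2 to 3 kb past a gene end the medians were 3.91, 3.74, 3.91 and 3.52, and at 3 to 4 kb they were 3.91, 3.78, 3.92 and 3.83. Summits numbered 640, 487, 110 and 67 at 2 to 3 kb, which the rule leaves out. At 3 to 4 kb they numbered 537, 391, 128 and 86.

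Regions holding an intergenic summit were mostly short. They numbered 1936, 1504, 1140 and 987, with a median length of 668, 716.5, 689 and 611 bp. These lengths overlapped between treatments. The longest regions reached 94185, 49041, 88310 and 37891 bp. The mean GC content of the 300 bp around the summit also overlapped (47.8%, 46.7%, 49.2% and 47.8%). A summit of the other library of the same treatment lay within 300 bp of 52.0%, 67.2%, 50.4% and 64.4% of intergenic summits, and the treatments again overlapped. The share was larger in the second library of each treatment, which had the shorter list.

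The place of intergenic summits relative to gene ends differed between treatments. With vehicle they piled up 3 to 10 kb past the 3′ end of the nearest protein-coding gene lying upstream on its own strand. This is the nearest interval that the rule allows. With CDDD11-8 they were spread farther out. The 3 to 10 kb interval held 2147, 1556, 769 and 555 summits. These were 56.0%, 53.2%, 30.5% and 28.6% of all intergenic summits, a vehicle mean of 54.6% ± 1.98 (SD, n = 2) and a CDDD11-8 mean of 29.6% ± 1.33 (SD, n = 2). Neither the counts nor the shares overlapped (exact permutation p = 0.33 for each).

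At 10 to 30 kb past the end the order was the opposite. There the summits numbered 669, 451, 934 and 654, and the counts of the treatments overlapped (exact permutation p = 0.67). As shares they were 17.4%, 15.4%, 37.1% and 33.7%, which did not overlap (exact permutation p = 0.33). On lists of equal length the counts separated too, at 219 and 176 with vehicle and 609 and 654 with CDDD11-8. Farther out, at 30 to 100 kb, the numbers were 393, 286, 393 and 287, and beyond 100 kb they were 625, 632, 424 and 442.

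The median distance past the gene end, among summits within 100 kb of one, was 6.93 and 6.89 kb with vehicle and 13.3 and 13.5 kb with CDDD11-8. The difference of 6.47 kb far exceeded the spread between replicates (SDs of 0.0255 and 0.131 kb, exact permutation p = 0.33). It was 6.33 kb on lists of equal length. The measure depends on the interval next to the gene: when gene spans were extended by 10 kb, which removes that interval, the medians were 22.2 and 24 kb with vehicle and 20.4 and 21.0 kb with CDDD11-8, and the direction turned.

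Per Mb of eligible sequence, the density fell steeply with distance in the vehicle libraries and slowly in the CDDD11-8 libraries. At 3 to 4 kb it was 165, 120, 39.3 and 26.4 summits per Mb. At 20 to 21 kb it was 5.76, 4.74, 14.9 and 10.2 per Mb. The CDDD11-8 libraries were thus the lower pair close to gene ends and the higher pair at 20 kb.

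**Figure D3:**
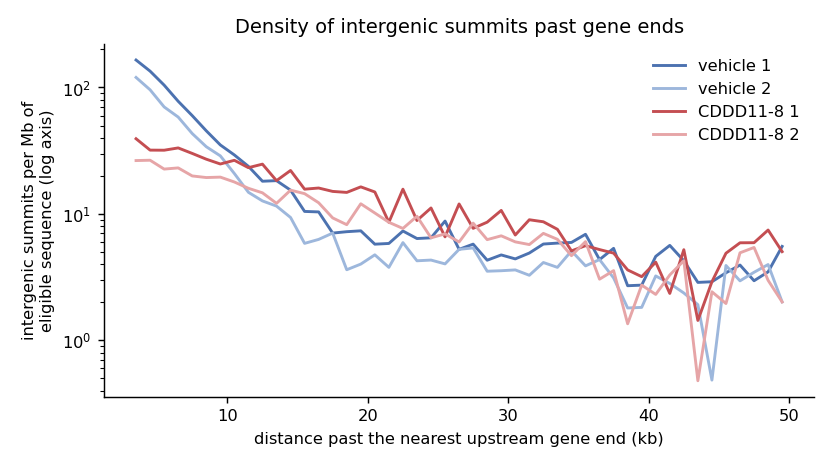
Intergenic summits per Mb of eligible sequence (vertical axis, log scale) in 1 kb steps of distance past the nearest upstream gene end (horizontal axis, kb), one line per library. Between 3 and 4 kb the vehicle lines lie at 165 and 120 per Mb and the CDDD11-8 lines at 39.3 and 26.4, and at 20 to 21 kb the order is reversed.

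Summits past one gene are not independent, so genes were also counted once per library. A summit 3 to 10 kb past the end was found for 671, 500, 235 and 171 genes, without overlap (exact permutation p = 0.33). A summit 10 to 30 kb past it was found for 194, 146, 204 and 151 genes, which overlapped. On lists of equal length the gene numbers were 253, 240, 171 and 171 at 3 to 10 kb and 87, 73, 146 and 151 at 10 to 30 kb, and neither set overlapped (exact permutation p = 0.33 for each). Of 3832 genes with at least 5 kb of eligible sequence in that interval, 50 (1.30%) had a summit there with CDDD11-8 in each replicate and with vehicle in none. The reverse pattern was found for 40 genes (1.04%), and 54 (1.41%) had a summit there in all 4 libraries.

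For 202 genes with an intergenic summit within 100 kb past the end in every library, the extent could be compared. The farthest summit of each CDDD11-8 library lay beyond that of each vehicle library for 80 genes (39.6%) and nearer for 31 (15.3%). Its median distance was 11.4, 10.4, 17.9 and 16.0 kb. The nearest summit lay farther out for 78 of the genes and nearer for 24, with medians of 5.27, 6.35, 8.29 and 8.51 kb. On the full lists, both the nearest and the farthest called summit thus lay farther out for more of these genes than they lay nearer. This comparison was not repeated on lists of equal length, so the part of list length in it was not tested.

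Joining summits of the 4 lists that lay within 300 bp gave 5941 intergenic loci. Those shared by the vehicle libraries and absent with CDDD11-8 (vehicle-only loci) came to 1072 loci (18%), close to the 18.8% for loci of all summits. Those shared by the CDDD11-8 libraries and absent with vehicle (CDDD11-8-only loci) came to 526 loci (8.85%), against 3.01% for all loci. All 4 libraries held 435 (7.32%), against 12.3% for all loci. A single library held 3265 loci (55.0%), and the rest fell in other combinations. On lists of equal length the counts were 301 for vehicle only, 567 for CDDD11-8 only and 242 for all 4. The shares over loci of all summits were not computed on those lists, so these counts stand without a background.

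The 3 kinds of loci lay at different distances from genes. Among loci found with vehicle only, 67.3% lay 3 to 10 kb past a gene end and 14.3% at 10 to 30 kb. Among loci found with CDDD11-8 only the shares were 22.8% and 53.8%. Loci in all 4 libraries had the largest share over 100 kb past a gene end, at 31.7%, against 13.1% with vehicle only and 11% with CDDD11-8 only. Of these, 61 of 138, 6 of 140 and 45 of 58 lay in the domains past ANKRD30A described further on, and without those domains the shares were 21.3%, 12.6% and 2.70%. The median distance, among loci within 100 kb, was 5.87 kb for vehicle only, 15.1 kb for CDDD11-8 only and 10.1 kb for all 4.

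**Figure D4:**
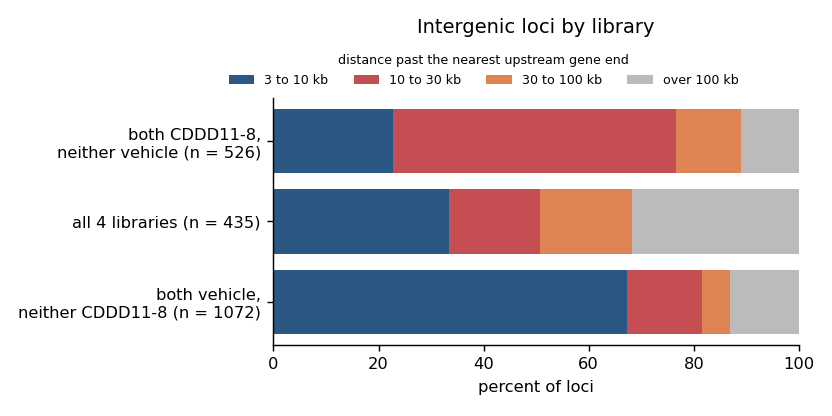
Percent of intergenic loci (horizontal axis) by distance past the nearest upstream gene end, for loci found in both CDDD11-8 libraries only (n = 526), in all 4 libraries (n = 435) and in both vehicle libraries only (n = 1072). The interval of 10 to 30 kb takes up 53.8% of the CDDD11-8 bar and 14.3% of the vehicle bar.

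Loci found in all 4 libraries also differed in sequence from those of a single treatment. In the 300 bp around the summit, 23% of them held at least 15 CpG dinucleotides, compared with 49.4% of promoter loci, 1.21% of vehicle-only loci and 3.99% of CDDD11-8-only loci. The SP letters were found in 21.6% of loci in all 4 libraries, 43.9% of promoter loci, 7.56% of vehicle-only loci, 8.17% of CDDD11-8-only loci and 7.45% of distal gene body loci. The ETS letters were found in 2.76% of loci in all 4 libraries, 3.26% of promoter loci, none of 1072 vehicle-only loci and 1 of 526 CDDD11-8-only loci. AP-2 letters, which are GC-rich, followed the same order at 17.5%, 25.3%, 6.62% and 8.37%.

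FOX letters, those of a factor family active at luminal enhancers, were found in 4.83% of loci in all 4 libraries, 2.99% of vehicle-only loci and 2.28% of CDDD11-8-only loci. By distance, they were found in 4.35% of intergenic loci over 30 kb past any gene end, 3.62% of distal gene body loci and 2.10% of promoter loci. By distance in the same order, GATA letters were found in 3.74%, 3.32% and 1.70%. AP-1 letters were found in 8.21%, 7.83% and 4.94%, and GRHL letters in 4.84%, 4.17% and 2.92%. The TATA letters were in 16.3%, 20.5% and 7.19%, and the CTCF core in 12.2%, 14.6% and 20.5%. Shares at these distant intergenic loci thus lay nearer to those of distal gene bodies than to those of promoters for each of these letters.

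The 8 highest-ranked loci found in all 4 libraries were GC-rich, at 59.3% to 73% GC in the 300 bp around the summit. The first by mean fold percentile lay 19.8 kb past the end of TEX44, at chr2:232478796, with folds of 10.4, 19.8, 33.4 and 27. The locus shown above past ZNF778, a zinc finger gene, had folds of 16.3, 13.7, 34.7 and 24.4. The one past PCDH1, a protocadherin gene, had folds of 8.75, 16.3, 39.3 and 25.8. At all 3 loci both CDDD11-8 folds exceeded both vehicle folds.

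The others lay near C2orf42, MRTFA (a coactivator of serum response factor), NARF, ARID1B (a subunit of the BAF chromatin remodeller) and MYH9 (non-muscle myosin). In rank within the list, none of the loci past TEX44, ZNF778 and PCDH1 had both CDDD11-8 percentiles above both vehicle percentiles. Among the others only the locus near NARF did. Its percentiles were 89.5106 and 97.8063 with vehicle and 98.995 and 97.8953 with CDDD11-8. Of the 435 loci in all 4 libraries, each CDDD11-8 percentile was above each vehicle percentile for 24 (5.52%) and below for 199 (45.7%). Over the 27404 loci of all summits found in all 4 libraries the shares were 19.9% above and 30.1% below, and over the 537 such loci of distal gene bodies they were 7.45% and 51.4%. The median percentile of the 435 intergenic loci was 80.7, 70.4, 58.1 and 51.1.

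Intergenic summits were clustered. The median distance to the next one was 0.859, 0.866, 0.807 and 0.846 kb. When neighbours were joined into domains at a distance commonly used to stitch enhancers, which lies between the 5 and 25 kb of the alternatives, 81.3%, 80.6%, 85.5% and 83.0% of summits fell in domains of 3 or more summits. The share was higher in both CDDD11-8 libraries (exact permutation p = 0.33). Joined over the 4 libraries, the summits formed 1213 domains, of which 273 held a single summit. The 121 domains of 20 or more summits held 5608 of the 11217 summits, and 99 of the 121 began within 30 kb past a gene end. Of these 121, 54 held fewer summits in each CDDD11-8 library than in each vehicle library (44.6%, against 35.2% of all 1213 domains) and 35 held more (28.9%, against 9.15%). On lists of equal length the order turned. Fewer were held by 39 of the 121 (32.2%, against 10.7% of all domains) and more by 50 (41.3%, against 13.0%). On the full lists no CDDD11-8 summit was found in 25 of the 121 and no vehicle summit in 7. These counts were not made over all domains.

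Among domains with the most loci in both vehicle libraries, the largest lay past ANKRD30A, which encodes the breast differentiation antigen NY-BR-1. It spanned chr10:37647885-37800757, 126 to 279 kb past the gene end, and held 160, 148, 222 and 189 summits. Regions covered 67.1%, 60.2%, 86.3% and 75.1% of it, so RNAPII extended over most of its 153 kb in every library and more so with CDDD11-8. Its 198 loci included 61 found in all 4 libraries and 45 with CDDD11-8 only. A nearer domain past the same gene, at chr10:37547096-37576183 and inside the transcribed pseudogene LINC00993, went the other way with 48, 47, 29 and 20 summits and 92.1%, 96.5%, 53.8% and 36.2% covered. Without both domains, an alternative added after seeing the data, the counts of loci were 1060 for vehicle only, 481 for CDDD11-8 only and 362 for all 4.

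Another vehicle domain lay in a gene desert, 909 to 995 kb past the end of GATA3, the luminal transcription factor. It spanned chr10:9026553-9112259 and held 44, 49, 1 and 0 summits. Regions covered 32.8% and 33.7% of it with vehicle and 0.471% in the first CDDD11-8 library. A domain with STRIT1 as the upstream gene and MME, which encodes neprilysin, as the nearest, spanned chr3:154492481-154510383. It held 26, 22, 0 and 0 summits, and regions covered 87.8% and 81.8% of it with vehicle. Both of these distant domains were thus strong with vehicle and nearly or wholly uncalled with CDDD11-8.

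Past MCM5, CYP4B1 and EGLN3, summits were found mostly or wholly with vehicle. Past MCM5, a subunit of the replicative helicase, the domain held 57, 37, 9 and 0 summits, reaching 64.9 kb past the end in the first vehicle library. Past CYP4B1, a cytochrome P450 gene, it held 20, 21, 0 and 0. Past EGLN3, a prolyl hydroxylase gene of the oxygen-sensing pathway, intergenic summits numbered 18, 19, 0 and 0, between 3.10 and 15.6 kb past the end. No summit of any kind was called with CDDD11-8 within 70 kb past the ends of CYP4B1 and EGLN3. Past ZNF207, a spindle assembly gene, summits remained in the CDDD11-8 libraries (23, 19, 7 and 6).

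The genes with the most vehicle-only loci past the end, picked after their values were seen, also included SPOPL (20, 18, 1 and 0 summits) and CDC73, a subunit of the PAF1 elongation complex (25, 24, 0 and 0). GMPS, which makes GMP, had 23, 24, 2 and 0, and LMNB1, which encodes lamin B1, had 17, 14, 0 and 0. In all, 382 of 20163 protein-coding genes had a vehicle-only locus within 100 kb past the end on the full lists. This gene count was not repeated on lists of equal length, where vehicle-only loci numbered 301 and CDDD11-8-only loci 567.

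On the full lists, CDDD11-8-only loci lay within 100 kb past the ends of 119 of 20163 protein-coding genes. Over all distances they were concentrated in a few domains. The 10 domains with most of them held 207 of the 526 loci (39.4%), 45 of these in the distant domain past ANKRD30A. Any such locus was held by 125 domains, compared with 412 domains for vehicle-only loci. The share in the 10 leading domains was not computed for vehicle-only loci. The genes named next were picked after their values were seen. Past CSNK1A1, which encodes casein kinase 1 alpha, intergenic summits numbered 9, 6, 48 and 42. The farthest lay 10.5 and 7.45 kb past the end with vehicle and 37.4 and 30.8 kb with CDDD11-8. The same stretch was thus occupied over its first kilobases in all libraries and continued only in the CDDD11-8 libraries.

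Past DYRK1A, a protein kinase gene, there were 6, 4, 47 and 40 summits. Past DHX15, which encodes a splicing helicase, there were 8, 5, 35 and 31, reaching 11.4 and 9.95 kb with vehicle and 32.8 and 32.7 kb with CDDD11-8. Past LARP4B, an RNA-binding protein gene, there were 8, 6, 36 and 34, and past TRPS1, a GATA-type repressor of the luminal lineage, 7, 6, 36 and 36. All 4 genes had more summits in each CDDD11-8 library than in either vehicle library.

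HNRNPD, SFPQ and SRSF3 encode RNA-binding proteins. Past HNRNPD there were 0, 0, 30 and 35 intergenic summits, beginning 16.5 kb past the end, since nearer sequence lies within 10 kb of lncRNA starts or in lncRNA genes. All 65 lay inside VAMP9P, a transcribed pseudogene on the other strand. Counting all summits, intergenic or not, the first 10 kb past HNRNPD held 14, 15, 14 and 13, and 10 to 30 kb past it held 1, 3, 29 and 33. Past SFPQ the corresponding numbers were 8, 8, 15 and 14 in the first 10 kb and 0, 0, 26 and 21 at 10 to 30 kb. Past SRSF3 they were 16, 15, 14 and 12, then 12, 6, 40 and 29. In the first 10 kb, summits thus overlapped in number past HNRNPD, were more with CDDD11-8 past SFPQ and fewer past SRSF3. At 10 to 30 kb they were more numerous in each CDDD11-8 library past all 3 genes, though past SRSF3 none of those was intergenic in any library.

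**Figure D5:**
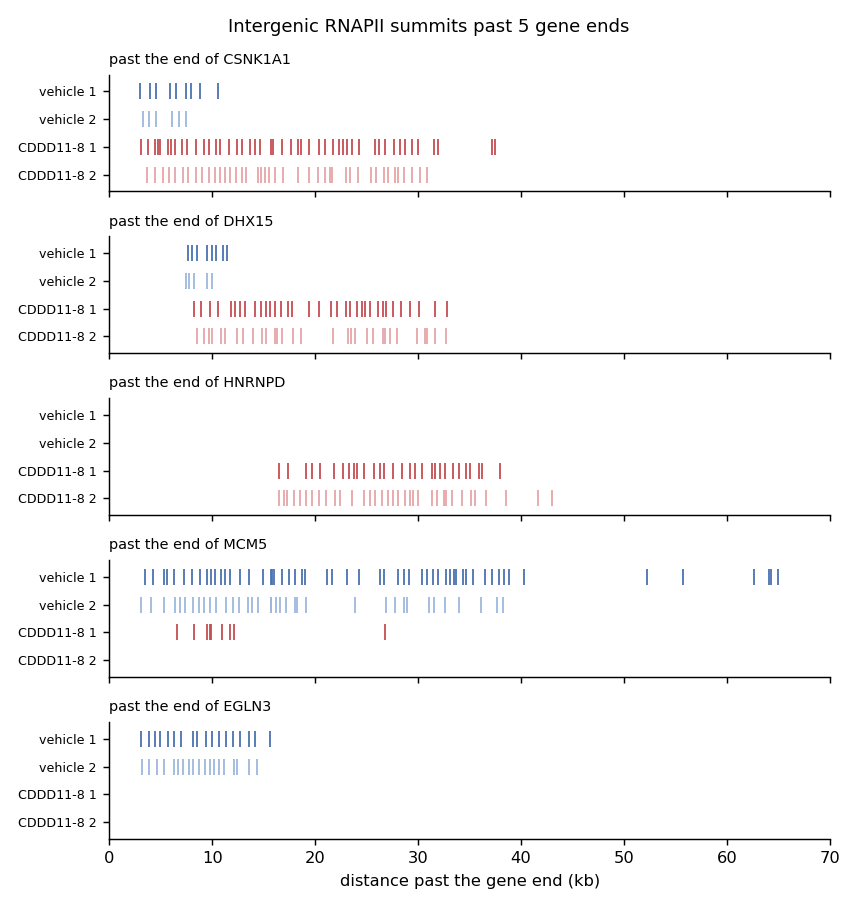
Intergenic RNAPII summits past the ends of CSNK1A1, DHX15, HNRNPD, MCM5 and EGLN3, each tick one summit, by distance past the gene end (horizontal axis, kb) in the 4 libraries. Sequence within 10 kb of another start or inside another gene is not eligible and holds no tick. Ticks past CSNK1A1 end at 10.5 and 7.45 kb with vehicle and at 37.4 and 30.8 kb with CDDD11-8, while those past EGLN3 are found with vehicle only.

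A like pattern was found past KPNA2, which encodes an importin, with 0, 0, 27 and 16 intergenic summits past its end and past RPS15A, a ribosomal protein gene, with 3, 0, 30 and 23. Genes with CDDD11-8-only and no vehicle-only loci had a median length of 42.4 kb (n = 93), and those with vehicle-only and no CDDD11-8-only loci 53.7 kb (n = 356). All protein-coding genes had a median of 27.2 kb (n = 20163). The share under 25 kb was 29.0%, 21.3% and 47.8%.

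Among the 6 highest-ranked CDDD11-8-only loci was the GC-rich window shown above past ETF1, which encodes translation termination factor eRF1. It had folds of 17.4 and 10.0 with CDDD11-8. The one past HNRNPD had folds of 12.7 and 10.3. Others lay past CHD2 (a chromatin remodeller), 262 kb past ANKRD30A, 28.2 kb past OR2W1 (nearest start ZNF311) and 586 kb past TRIML2 (nearest start ZFP42). The highest-ranked vehicle-only locus lay 4.49 kb past EGLN3, with folds of 14.2 and 14.8. The second lay 987 kb past GATA3, with folds of 14.5 and 12.7. Of the 6 highest-ranked vehicle-only loci, 4 were past EGLN3, and the last lay 4.81 kb past SRSF3 with folds of 19.1 and 9.19.

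Loci within 100 kb of a transcript start were counted for 3 gene lists. Of 24 luminal lineage genes, 11 (45.8%) had a locus, compared with 2837 of 20163 protein-coding genes (14.1%). For 3 of the 11 (TFAP2C, KRT8 and KRT18) the summits came from the first vehicle library alone, and the adjacent KRT8 and KRT18 had the same summit numbers and folds. Counting only loci found in at least 2 libraries, 8 of the 24 genes (33.3%) and 1772 of all genes (8.79%) had one. The other lists also lay above the shares of all genes. Of 14 genes in the immediate-early and MYC list, 3 (21.4%) had a locus, and of 12 basal and mesenchymal genes 3 (25%). With loci in at least 2 libraries they were 3 (21.4%) and 2 (16.7%). The basal genes KRT14 and KRT17 had the same highest folds in every library as the luminal gene KRT19, so the lists were not separate. FOXA1, XBP1, SPDEF and MYC had none. The luminal gene TFAP2A, which encodes AP-2 alpha, had 16 loci with 9, 10, 18 and 21 summits, of which 6 loci were found with CDDD11-8 only. GATA3 had 8 loci with 6, 4, 5 and 6 summits, and GRHL2 had 6 loci with 6, 3, 0 and 0. The immediate-early gene EGR1 had 18 loci with 4, 3, 18 and 17 summits. These were the domain at chr5:137825516-137838514, 3.27 to 16.3 kb past the end of ETF1, which held the same numbers of loci and summits. The ETF1 locus above was among them.

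Some intergenic summits lay in repeated sequence or near assembly gaps. At least 50% of sampled 31-mers were repeated elsewhere in the genome for 28.8%, 20.7%, 20.4% and 25.7% of intergenic summits. Summits within 50 kb of an assembly gap numbered 85, 120, 56 and 113. A domain at chr16:46386623-46435388 held 0, 36, 0 and 44 summits, so it was found in the second library of both treatments and in neither first library. Among loci found in 1 vehicle and 1 CDDD11-8 library, 99 shared replicate number 1 and 86 shared number 2. The combinations of different numbers held 85 together. Same-numbered libraries thus shared more of these loci than differently numbered ones, and the source of this was not tested. The part of these sequences in the results was measured by leaving them out, alternatives added after seeing the data: 768 vehicle-only, 376 CDDD11-8-only and 320 common loci were left without repeated sequence, and 1057, 524 and 428 without gap neighbours. Without summits inside pseudogenes and other small gene classes, also added after seeing the data, they were 1062, 503 and 415.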

How the data were processed

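The data were RNAPII ChIP-seq peak lists of MDA-MB-453 cells, 2 libraries each after 4 h of vehicle or of CDDD11-8 at 600 nM. The authors aligned reads to GRCh37 (hg19) with Bowtie 2 and called peaks per library with MACS2 against a paired input; versions are not given in the sources used here. The submitters' processing notes also name DiffBind and deepTools.

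The deposited pileup is a signal, the fragments over the summit after scaling by the caller. The deposited fold enrichment is a ratio of signal to local background, and the deposited p-value and q-value are −log10 values. The deposited region length is in bp. Depth is unknown, so no interval for counting error is given.

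Summits were annotated with GENCODE release 44 mapped to GRCh37, and joined into loci within 300 bp and, at a distance commonly used to stitch enhancers, into domains. Distance past a gene end was taken to the nearest protein-coding 3′ end upstream on the gene's strand, using the annotated span of the gene. Density was measured on a 100 bp grid of eligible sequence. Treatments were compared on 1 value per library with a two-sided exact permutation test. Each p-value is the share of the 6 arrangements of libraries with a difference at least as large. It is 0.33 whenever the groups do not overlap, whatever their spread. The replicates behind it are 2 passages per treatment. The lists of loci and domains named are the 8 domains with most loci in both vehicle libraries, and the 8, 6 and 6 loci with the highest mean fold percentile in all 4, CDDD11-8 only and vehicle only. Members of 3 gene lists were also named. The members and lists were chosen with earlier results of these data known, and results on the 3 to 10 and 10 to 30 kb intervals and on single gene ends were added after seeing the data. The measures were checked on simulated positions. The alternatives tried were lists of equal length, only summits with −log10 q of 5 or more, other start distances, gene extensions and joining distances, leaving out single libraries, and blocking on the replicate number. Read counts and the inputs were not used here. Scripts ran in Python 3.11.15 with numpy 2.4.6, numba 0.67.0, pandas 2.3.3, matplotlib 3.10.9 and scipy 1.17.1.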

Additional observations from a re-analysis of the deposited data

How the results depend on the processing

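Results on shares, ratios and ranks kept their direction under most alternatives, but numbers depended on list length and on the rule. The number of intergenic summits, which fell by 1150.5 with CDDD11-8, was higher by 541 on lists of equal length and by 80 with gene spans extended 10 kb. The number of genes with a summit 30 to 100 kb past the end, which fell by 5.5, was higher by 37 on equal lists. With those spans the share 3 to 30 kb past gene ends rose by 14.8 percentage points and the median distance fell by 2.43 kb. The median width differed by 37.5 bp with −log10 q of at least 5. The share found in the other replicate differed by 1.05 percentage points with that threshold and 2.34 on equal lists. Loci counts (vehicle only, CDDD11-8 only, all 4) were 687, 316 and 269 with −log10 q of at least 5. They were 301 (vehicle only) and 242 (all 4) on equal lists. They were 1859 (vehicle only) and 733 (all 4) over 5 kb from every start, and 428, 250 and 210 over 20 kb from it. All-4 loci numbered 263 when joined within 150 bp, and CDDD11-8-only loci 266 when joined within 600 bp.

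Leaving out each library in turn gave, as CDDD11-8 minus vehicle, −9.78 to 5.41 percentage points for the share found in the other replicate, −1605 to −696 for the number of intergenic summits, −26.4 to −23.6 and 17.3 to 20.6 percentage points for the shares at 3 to 10 and 10 to 30 kb, and 6.38 to 6.57 kb for the median distance. The replicates were separate passages, and no source used here says that a number marks the same passage in both treatments. The deviations of same-numbered libraries correlated at 0.0824 over the 435 loci found in all 4 libraries. That value leaves out loci called in only some libraries, such as those shared by same-numbered libraries alone. With the replicate block the differences were the same (6.47 kb for the median distance), and the exact sign-flip test over 2 pairs cannot go below p = 0.5. Leaving out repeated sequence, gap neighbours, the ANKRD30A domains or other gene classes, all added after seeing the data, turned no direction. The planned exclusion of soft-masked windows was not run, since the reference holds 0 soft-masked bases. Depth, which is unknown here, limits every count.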
